A study of Rattus norvegicus with 24 samples.

Results

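The 39 genes described here drive or mark cell division: the cyclins and kinases of the cell cycle, the enzymes and helicase subunits that copy DNA, and the proteins that build the mitotic spindle and let chromosomes part. They were chosen as a named set and matched to array probes through the rat RefSeq transcript given for each probe. Of the 39 genes, 35 had a named probe (45 probes in all), and 10 of these had several. Mki67, Top2a, Bub1b and Mcm5 had none and enter only the promoter search below. The probe of Cdkn3, a phosphatase that acts on cyclin-dependent kinases, was well above background on 4 of 24 arrays and was not tested. The 34 members tested stand among 12894 genes tested in all, and 31 of the 34 were well above background on all 24 arrays. The exceptions were Ccne2 (19 arrays, 1 of 4 in the Neiguan group), Cdc6 (23 arrays) and Aurkb (18 arrays, 1 of 4 in the Yanglingquan group).

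Heart muscle RNA of 24 rats, males and females in equal number, was hybridised to one-colour Agilent arrays, with 4 rats in each of 6 groups. Sham rats formed the first group. In the ischaemia-reperfusion injury (IRI) group the left anterior descending coronary artery was tied off, with no acupuncture. The Jiaji, Neiguan, Yanglingquan and Quchi groups received acupuncture at the acupoint that names the group for 7 days and then this injury, which every group except sham thus shares. Neither the labels nor the file headers state the rats' strain or age, or how long reperfusion lasted and when tissue was taken. A level below is a log2 signal relative to the 75th percentile of its own array, which is 0. Levels of different genes rest on different probes and are not compared. The labels number the rats within a group and say no more of how they or their RNA were handled, so a p-value here reflects only the spread among the arrays of a group.

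On the Yanglingquan arrays 76.6 to 80.9% of probes were well above background, and on the others 80.3 to 90.9%. Sham and IRI arrays were scanned on the same day and the acupoint arrays on other days, so scan day and group cannot be told apart in any comparison of an acupoint group with IRI or sham. Each group was scanned as its own set, except that Quchi replicate 1 was scanned apart from the other Quchi arrays. Scan set and group thus cannot be told apart in any comparison, IRI against sham and those among acupoint groups included. All 10 cardiomyocyte markers looked for were tested, and their summed linear signal was 1102 to 2199 times the 75th percentile over the 24 arrays.

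Cells enter division when growth signals raise cyclin D and release E2F factors, which switch on the genes for DNA synthesis. Cyclin B with Cdk1 then starts mitosis, and the ligase APC/C, switched on by Cdc20, ends it by marking cyclin B and securin for destruction. Adult heart muscle cells rarely divide, so transcripts of this program in heart tissue can also come from endothelial cells, fibroblasts and blood cells. In whole tissue, fewer dividing cells and less RNA per cell cannot be told apart.

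Genes of the late cell cycle are known to share promoter letters: the CHR element (TTTGAA) and the CCAAT box (CCAAT), read by the DREAM, B-Myb and NF-Y factors, and E2F sites. Most tested members moved together from heart to heart. The promoters of the members, tested or not, were searched for these letters on both strands. RefSeq promoters of 250 bases before and 50 bases after the start site (assembly GRCr8) were at hand for 29 of the 39 members. CHR letters were found in 13 of the 29, against 18.3% of 33469 rat promoters of the same length. CCAAT was found in 22 of the 29, against 37.5%. An E2F sequence (TTTGGCGC, TTTCCCGC, TTTGCCGC or TTTCGCGC) was found in 7 of the 29, against 2.14%. Members that were not tested are counted too: Bub1b, Mki67, Top2a and Cdkn3 for CHR letters, and Cdkn3, Mcm5, Mki67 and Top2a for CCAAT. Mcm5 is also among those with an E2F sequence. A match describes letters only. Sequences are shown for Cdk1, which stands closest to the other members over the 24 hearts, and for the 4 members that passed a test. For Cdk1 and Cdc20 these are the window's bases before the outermost annotated start of the gene. The annotated genes of Prc1, Tyms and Mcm7 begin further out, so that 30 bases around 1 match are shown for each. Capitals mark the matches, and ATTGG is CCAAT read from the opposite strand. In the order shown the stretches lie at chr20:19265043-19265251 (forward strand), chr5:137255800-137256049 (reverse strand), chr1:143659451-143659480 (forward strand), chr9:120776102-120776131 (reverse strand) and chr12:22163212-22163241 (reverse strand) of GRCr8.
Cdk1: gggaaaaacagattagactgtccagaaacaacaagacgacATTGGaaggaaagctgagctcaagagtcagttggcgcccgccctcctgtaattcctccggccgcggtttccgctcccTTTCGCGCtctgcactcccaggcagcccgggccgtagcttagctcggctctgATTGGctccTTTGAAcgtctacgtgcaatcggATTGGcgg
Cdc20: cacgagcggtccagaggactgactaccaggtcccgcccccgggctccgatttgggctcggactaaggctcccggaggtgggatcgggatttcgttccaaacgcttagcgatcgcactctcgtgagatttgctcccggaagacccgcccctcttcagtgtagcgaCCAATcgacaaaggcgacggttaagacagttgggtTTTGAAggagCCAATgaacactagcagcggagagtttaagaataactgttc
Prc1: cctccggctcggTTTGAAttccgcggggtc
Tyms: aaggtgcgggtTTTGGCGCcgactacactg
Mcm7: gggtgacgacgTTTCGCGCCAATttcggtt
Over the whole windows, the promoters of the mitotic genes Cdk1, Cdc20 and Prc1 held both CHR and CCAAT letters. That of Tyms held an E2F sequence and neither of the others. In the Mcm7 stretch an E2F sequence and a CCAAT box overlap, with first bases at positions -52 and -45 from the start site, and a further E2F sequence and further CCAAT letters lie elsewhere in its window.

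Injury without acupuncture was compared with sham first. None of the 34 members passed the test (limma, Benjamini-Hochberg adjusted p under 0.05), where 5.75% of all genes did (4.72% higher and 1.03% lower), and 1 member had an unadjusted p under 0.05. Here and below, shares of all genes called use the adjusted threshold. The share of all genes at an unadjusted p under 0.05 is not given, so counts at that looser threshold have no such share beside them. Differences of the members ranged from -0.55 to 0.40 on the log2 scale, with a median of -0.02 and 19 of 34 below 0. Over all genes tested 56.0% were below 0. The members' median ran from -0.26 without sham replicate 3 to 0.16 without IRI replicate 4, so close to 0 that leaving out any 1 heart moved it by over 1.5 times and leaving out IRI replicate 4, sham replicate 2 or sham replicate 4 changed its sign, and it was 0.03 with normexp background correction.

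Against IRI, the members tended to lower values in all 4 acupoint groups, while few passed the test. In Yanglingquan hearts 32 of 34 members were below their IRI level (median -0.58) and 2 fell, Cdc20 and Prc1. The share of all genes called was 12.1% (4.09% higher, 8.03% lower). In Jiaji hearts 30 of 34 were below IRI (median -0.28) and 1 fell, Cdc20, against 10.2% of all genes called, 8.39% higher and 1.8% lower. In Neiguan hearts 31 of 34 were below (median -0.22) and none passed, with 2 at an unadjusted p under 0.05 and 5.63% of all genes called, 4.41% higher and 1.23% lower. In Quchi hearts all 34 were below (median -0.33) and none passed, with 1 at an unadjusted p under 0.05 and 3.44% of all genes called, 2.39% higher and 1.05% lower. The share of all genes below 0 was 52.3% for Jiaji, 57.6% for Neiguan, 54.5% for Yanglingquan and 47.1% for Quchi. No member passed upward in any of the 4. These comparisons share the same 4 IRI hearts. The members also moved together from heart to heart (median pairwise r of 0.72, described below). Counts of members below 0 are therefore not counts of separate observations. Under the other scalings tried every one of the 4 medians stayed below 0, at -0.24 to -0.49 for Jiaji, Neiguan and Quchi and -0.38 to -0.48 for Yanglingquan. The median of all genes ran there from -0.23 to 0.01 for the first 3 groups and from -0.01 to 0.08 for Yanglingquan. Single hearts moved 3 of these medians by over 1.5 times. Without IRI replicate 1 the median was -0.10 in Jiaji, -0.08 in Neiguan and -0.19 in Quchi hearts, and without IRI replicate 4 it was -0.46, -0.38 and -0.50. The Jiaji median was -0.12 without Jiaji replicate 3 and -0.53 without Jiaji replicate 4. The Neiguan median was 0.03 without Neiguan replicate 1 and -0.43 without Neiguan replicate 2. Scaling also set how all calls split: lower calls made up 17.7% of Jiaji, 21.8% of Neiguan, 66.3% of Yanglingquan and 30.6% of Quchi calls against IRI, and 68.8%, 39.1%, 46.1% and 41.9% when arrays were scaled on their medians.

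**Figure D1:**
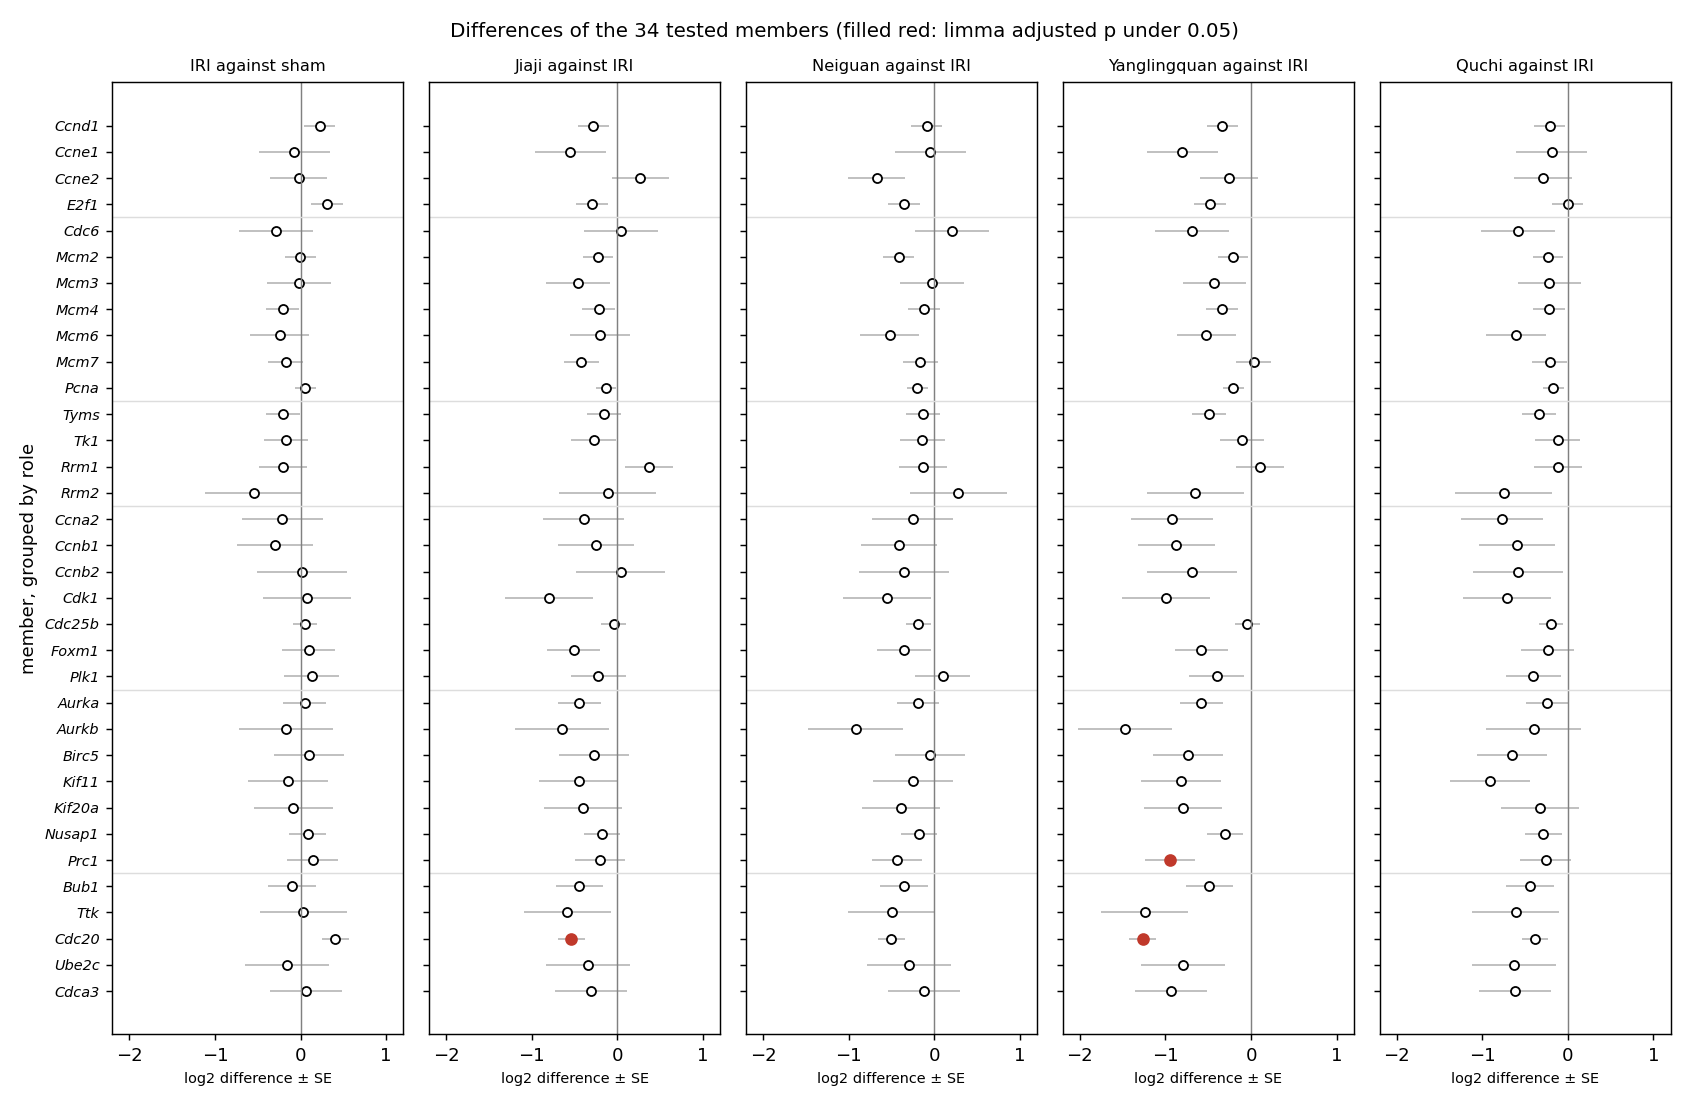
Log2 difference (x axis, point) with its standard error (grey bar) for each of the 34 tested members (y axis, grouped by role) in 5 comparisons, with filled red points for limma adjusted p under 0.05. Points scatter around 0 for IRI against sham and lie mostly left of 0 in the 4 acupoint panels, where Cdc20 (Jiaji and Yanglingquan) and Prc1 (Yanglingquan) are the filled ones.

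Against sham the picture was similar. Members below the sham level numbered 29 of 34 in Jiaji hearts (median -0.41), 31 in Neiguan (-0.32), 33 in Yanglingquan (-0.65) and 31 in Quchi (-0.40). Of all genes, 58.7% were below 0 in Jiaji, 60.6% in Neiguan, 57.1% in Yanglingquan and 46.5% in Quchi hearts. Their medians were -0.09, -0.10, -0.06 and 0.04. Jiaji hearts had 1 called member, Mcm7, against 24% of all genes (17.5% higher, 6.55% lower). Yanglingquan hearts had 2, Cdc20 and Tyms, against 13% of all genes called, 5.79% higher and 7.21% lower. At an unadjusted p under 0.05 there were 15 members, a looser threshold than that of the 13%, so the 2 are not comparable. Neiguan hearts had none, against 19.9% of all genes called (12.5% higher, 7.39% lower), and Quchi hearts had none, against 21.1% (11.8% higher, 9.26% lower), with 2 and 5 members at an unadjusted p under 0.05. Neiguan's median against sham was 0.02 without Neiguan replicate 1, -0.50 without Neiguan replicate 2 and -0.18 without sham replicate 4, and Jiaji's was -0.21 without Jiaji replicate 3.

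Cdc20, the activator that turns APC/C on at the end of mitosis, was the member with the most calls. Its level was 2.26, 1.99, 1.94 and 2.28 in sham replicates 1 to 4 and 2.72, 2.17, 2.45 and 2.76 in IRI hearts. In Jiaji hearts it was 2.09, 1.98, 1.58 and 2.28, and in Neiguan hearts 2.31, 1.69, 2.01 and 2.07. Yanglingquan hearts had 1.24, 1.42, 0.99 and 1.39, and Quchi hearts 2.01, 2.18, 1.93 and 2.44. All 4 Yanglingquan hearts lay below each of the other 20 hearts, while the remaining groups overlapped. IRI hearts had the highest mean, 2.52 ± 0.28 (SD, n = 4), against 2.12 ± 0.18 in sham and 1.26 ± 0.20 in Yanglingquan hearts. Cdc20 fell in Yanglingquan against IRI by 1.26 ± 0.16 on the log2 scale (SE), which is 2.40-fold, with limma adjusted p = 2.65e-05. It also fell against sham, with a difference of -0.86 ± 0.16 (limma adjusted p = 0.00122). In Jiaji against IRI it fell by 0.54 ± 0.16, or 1.45-fold (limma adjusted p = 0.0314). That call was lost when any of IRI replicates 1, 3 and 4 or Jiaji replicates 1 and 3 was left out (adjusted p 0.0625 to 0.122). The difference was -0.50 ± 0.16 in Neiguan against IRI (adjusted p = 0.0664, and 0.0405 to 0.0494 under median scaling, quantile normalisation and the authors' processed values) and -0.38 ± 0.16 in Quchi (adjusted p = 0.184). IRI against sham gave 0.40 ± 0.16 (adjusted p = 0.156), the highest of the 34 members.

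Among the 4 acupoint groups, Cdc20 was the 1 member of 34 that differed by limma's F test (adjusted p = 0.000967), where 39.1% of all genes were called. It was lower in Yanglingquan hearts than in the mean of the other 3 acupoint groups by 0.79 ± 0.13 (limma adjusted p = 0.000183), a comparison that called 25.6% of all genes (7.57% higher, 18.1% lower). The other 33 members did not pass this comparison either way, and the members' median was -0.28. That median was -0.14 without Yanglingquan replicate 3, -0.43 without Yanglingquan replicate 4 and -0.19 without Jiaji replicate 4. With arrays scaled on their medians, which moved the median of all genes here from -0.02 to 0.20, the members' median was -0.06 with 20 of 34 below 0, and Cdc25b and Mcm7 were called higher.

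Prc1, which bundles the microtubules of the central spindle before the cell divides, had levels of -2.25, -2.24, -3.30 and -2.47 in sham and -1.59, -2.83, -2.31 and -2.98 in IRI hearts. Jiaji hearts had -2.52, -2.91, -3.19 and -1.90, and Neiguan hearts -3.31, -2.198, -2.77 and -3.16. In Yanglingquan hearts the levels were -3.32, -3.27, -3.76 and -3.15, and in Quchi hearts -2.60, -2.50, -2.90 and -2.74. The Yanglingquan values lay below all IRI and Quchi values but overlapped those of sham, Jiaji and Neiguan hearts. Prc1 fell in Yanglingquan against IRI by 0.95 ± 0.29 (1.93-fold, limma adjusted p = 0.0396), and the call was lost without IRI replicate 1 or 3 or Yanglingquan replicate 1, 2 or 3 (adjusted p 0.0829 to 0.149). It was also lost under each other scaling tried, for example quantile normalisation (adjusted p = 0.101) and median scaling (adjusted p = 0.0606), and with only the groups compared in the fit (adjusted p = 0.0876). A second Prc1 probe was well above background on all sham, IRI and Quchi arrays and on no Yanglingquan array. Its signal was at least 2.26-fold higher in IRI than in Yanglingquan hearts, at least 2.12-fold higher in sham and at least 1.73-fold higher in Quchi hearts. Those bounds set the mean of the brighter group against the lowest signal counted as well above background. The fit of that probe in Yanglingquan against IRI gave limma adjusted p = 0.00397 over 25149 probes, which rests on Yanglingquan signals not well above background.

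Tyms, thymidylate synthase, makes the thymidine nucleotide for DNA. Its levels were -1.42, -1.30, -1.85 and -1.46 in sham and -1.39, -1.72, -2.07 and -1.67 in IRI hearts. They were -1.84, -1.64, -2.64 and -1.33 in Jiaji and -2.18, -1.51, -1.70 and -1.97 in Neiguan hearts. Yanglingquan hearts had -2.23, -1.99, -2.18 and -2.41, and Quchi hearts -1.87, -1.85, -2.14 and -2.34. Every Yanglingquan heart lay below every sham heart, and Quchi replicate 2 lay level with sham replicate 3, the lowest sham heart. Tyms fell in Yanglingquan against sham by 0.69 ± 0.20 (1.62-fold, limma adjusted p = 0.0265), while Quchi against sham gave -0.54 ± 0.20 (adjusted p = 0.0577). The first call was lost without sham replicate 2 or 4 or Yanglingquan replicate 1 or 4 (adjusted p 0.0641 to 0.0762), and under each other scaling tried, for example quantile normalisation (adjusted p = 0.0608) and median scaling (adjusted p = 0.0544).

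Mcm7 is a subunit of the helicase that is loaded at replication origins. Sham hearts had 1.44, 1.54, 1.08 and 1.72, and IRI hearts 1.46, 0.98, 1.32 and 1.33. Jiaji hearts had 0.52, 0.76, 0.54 and 1.58, and Neiguan hearts 0.78, 1.16, 1.30 and 1.195. Values were 1.23, 1.13, 1.08 and 1.77 in Yanglingquan and 1.18, 1.08, 0.92 and 1.05 in Quchi hearts. In 3 of the 4 Jiaji hearts the level lay below every sham heart, and Jiaji replicate 4 lay within the sham range. Mcm7 fell in Jiaji against sham by 0.59 ± 0.21 (1.51-fold, limma adjusted p = 0.0399), and the call held without Jiaji replicate 4 and without sham replicate 3 but not without any other heart of the 2 groups (adjusted p 0.0659 to 0.136). It was lost too with only the groups compared in the fit (adjusted p = 0.125). In Yanglingquan hearts Mcm7 stood at its IRI level, with a difference of 0.03 ± 0.21.

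Cdk1 is the kinase that starts mitosis. It was at -0.03, -0.22, -1.75 and -0.26 in sham and 0.50, -0.83, -0.44 and -1.20 in IRI hearts. Jiaji hearts had -1.57, -1.43, -2.36 and 0.17, and Neiguan hearts -2.47, -0.13, -0.45 and -1.11. In Yanglingquan hearts it was -1.26, -1.07, -2.47 and -1.16, and in Quchi hearts -0.76, -0.999, -1.63 and -1.43. Hearts of one group lay far apart, most of all in the Jiaji and Neiguan groups (SD 1.06 and 1.04, n = 4), and every group overlapped every other. The difference from IRI was -0.996 ± 0.513 in Yanglingquan hearts (limma adjusted p = 0.224) and -0.80 ± 0.51 in Jiaji hearts (adjusted p = 0.369).

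Ccnb1, cyclin B1, is the partner of Cdk1. Its levels were -2.48, -2.31, -3.44 and -2.53 in sham and -2.04, -2.91, -3.20 and -3.80 in IRI hearts. Jiaji hearts had -3.24, -3.30, -3.96 and -2.46, and Neiguan hearts -4.88, -2.31, -2.69 and -3.72. They were -3.63, -4.07, -4.24 and -3.50 in Yanglingquan and -3.39, -3.45, -3.48 and -4.00 in Quchi hearts. The lowest value of all 24 was in Neiguan replicate 1 and the highest in IRI replicate 1. The difference was -0.87 ± 0.45 in Yanglingquan against IRI (limma adjusted p = 0.221) and -1.17 ± 0.45 against sham (adjusted p = 0.087), where all 4 Yanglingquan hearts lay below all 4 sham hearts.

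Pcna, the clamp that holds DNA polymerase on its template, varied least of the 34 members. It was at 2.31, 2.24, 2.04 and 2.42 in sham and 2.51, 2.30, 2.28 and 2.14 in IRI hearts. Jiaji hearts had 1.996, 2.15, 2.06 and 2.47, and Neiguan hearts 1.95, 2.13, 2.25 and 2.10. Values were 2.01, 2.37, 1.99 and 2.02 in Yanglingquan and 2.10, 2.14, 2.15 and 2.16 in Quchi hearts. All 24 hearts lay within 0.56 log2 units, and the 4 differences from IRI ran from -0.13 to -0.21 (SE 0.12, limma adjusted p 0.288 to 0.55).

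Ccnd1, cyclin D1, couples growth signals to the start of the cycle. Sham hearts had -1.24, -0.43, -0.91 and -0.60, and IRI hearts -0.38, -0.96, -0.51 and -0.45. Jiaji hearts had -0.34, -1.41, -0.91 and -0.77, and Neiguan hearts -0.68, -0.52, -0.78 and -0.66. It was at -0.67, -0.88, -0.98 and -1.10 in Yanglingquan and -0.82, -0.67, -0.85 and -0.79 in Quchi hearts. The groups overlapped throughout, and IRI against sham gave 0.22 ± 0.18 (limma adjusted p = 0.595).

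**Figure D2:**
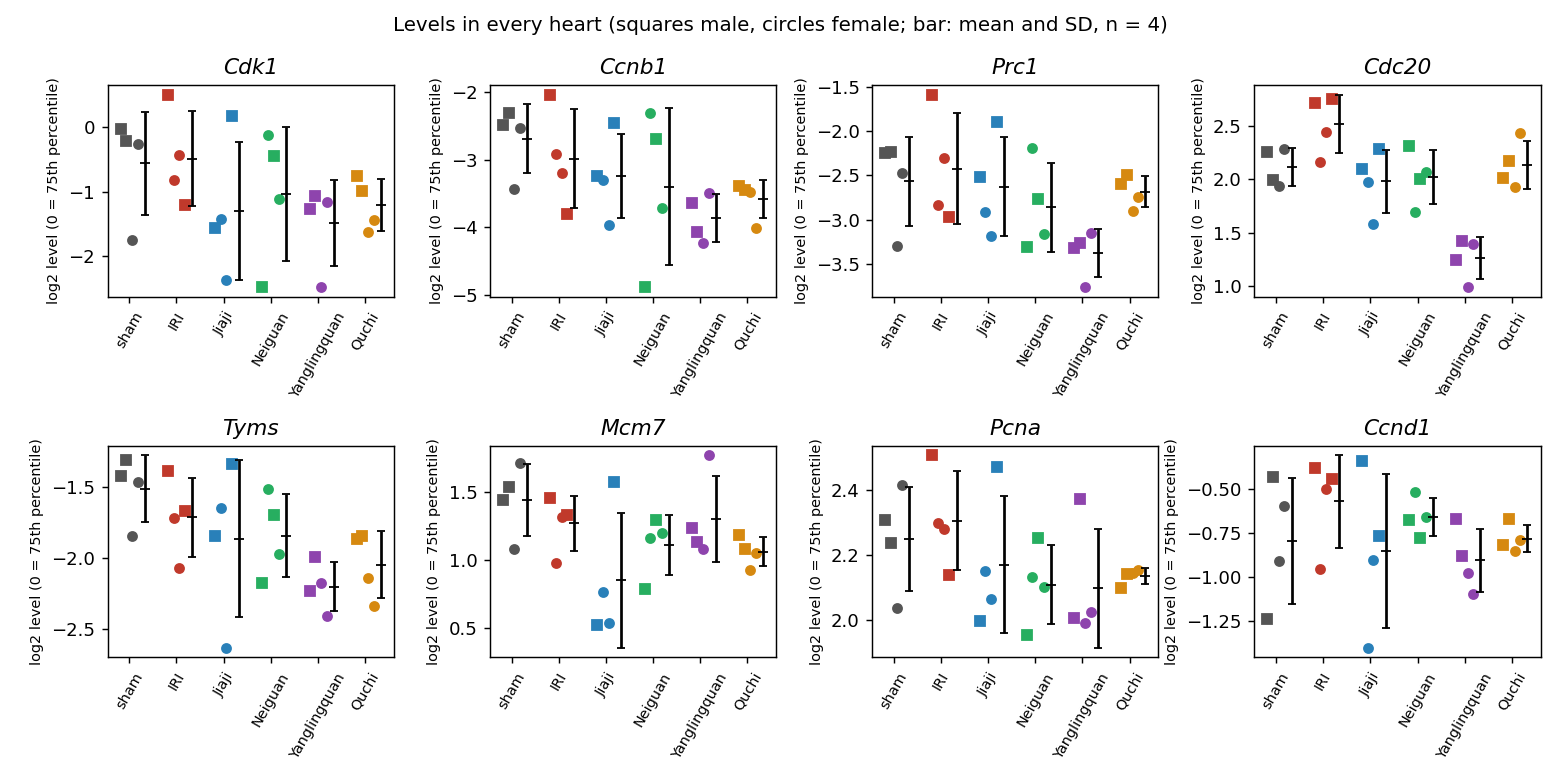
Level of 8 members in every heart (y axis, log2 relative to the array's 75th percentile, a different range per panel) by group (x axis), with males as squares, females as circles and the group mean and SD (n = 4) as a bar. Cdc20 has all 4 Yanglingquan hearts (0.99 to 1.42) below every other heart, while Cdk1, Ccnb1 and Prc1 spread widely within groups.

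By role, the largest median gaps from IRI were seen in Yanglingquan hearts among the genes of mitotic exit and its checkpoint (Bub1, Ttk, Cdc20, Ube2c and Cdca3), with 5 of 5 below IRI and a median of -0.94. Bub1 and Ttk are checkpoint kinases, Cdc20 is the APC/C activator and Ube2c its ubiquitin-conjugating enzyme, while Cdca3 takes part in the destruction of the mitosis inhibitor Wee1. The 7 spindle and cytokinesis genes (Aurka, Aurkb, Birc5, Kif11, Kif20a, Nusap1 and Prc1) were all below IRI, with a median of -0.80, and the 7 genes of mitotic entry (Ccna2, Ccnb1, Ccnb2, Cdk1, Cdc25b, Foxm1 and Plk1) likewise, with a median of -0.69. The 4 G1 genes (Ccnd1, Ccne1, Ccne2 and E2f1) had a median of -0.41. For the 7 genes of origin licensing and the fork (Cdc6, Mcm2, Mcm3, Mcm4, Mcm6, Mcm7 and Pcna) the median was -0.33 with 6 of 7 below IRI. The 4 nucleotide supply genes (Tyms, Tk1, Rrm1 and Rrm2) had -0.30 with 3 of 4 below. In IRI against sham the 6 role medians, in the same order of naming, were 0.03, 0.05, 0.05, 0.10, -0.17 and -0.21. In Quchi against IRI they were -0.61, -0.32, -0.58, -0.20, -0.22 and -0.23, in Jiaji -0.44, -0.40, -0.25, -0.29, -0.22 and -0.13, and in Neiguan -0.35, -0.25, -0.35, -0.22, -0.16 and -0.13. In all 4 acupoint groups the checkpoint and exit genes had the lowest median. Differences between roles were not tested.

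The members with an unadjusted p under 0.05 but no call in Yanglingquan against IRI were Aurka, Aurkb, Cdca3, E2f1, Ttk and Tyms. The kinase Ttk, which starts the spindle checkpoint, gave -1.24 ± 0.51 (limma adjusted p = 0.121). Aurkb, the kinase of the chromosomal passenger complex, gave -1.47 ± 0.55 (adjusted p = 0.089), and it was well above background in 1 of 4 Yanglingquan hearts.

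All genes tested were split by mean level into 4 brightness classes of equal size, class 1 the faintest. The classes held 4, 18, 9 and 3 members. In Yanglingquan against IRI the median of all genes in classes 1 to 4 was -0.37, -0.06, 0.02 and 0.11. The members' medians in the same classes were -0.47, -0.76, -0.34 and -0.21. The members' median lay below that of equally bright genes in each class, and the faintest genes in general were low on the Yanglingquan arrays. In Quchi against IRI the gene medians were 0.04, -0.05, -0.02 and 0.11, and the members' were -0.34, -0.49, -0.22 and -0.21.

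Other probes of the same members did not always give the same result as the ones that stand for them. Mcm4, another helicase subunit, gave -0.33 ± 0.19 in Yanglingquan and -0.22 ± 0.19 in Quchi hearts against IRI with its brighter probe, and neither passed. Its fainter probe, well above background on all 24 arrays, gave -0.85 ± 0.23 and -1.09 ± 0.23 (limma adjusted p = 0.0178 and 0.00839 over 25149 probes). On that probe IRI hearts had -2.28, -3.14, -2.80 and -2.90, Yanglingquan hearts -3.41, -3.78, -3.44 and -3.87, and Quchi hearts -3.72, -3.99, -3.79 and -3.98. The fainter probe thus separated both groups from IRI and the brighter probe separated neither. E2f1, the factor that switches on DNA synthesis genes, gave -0.48 ± 0.19 in Yanglingquan against IRI (adjusted p = 0.1), and its other probe -0.79 ± 0.19 (adjusted p = 0.00867 over 25149 probes). That other probe had a mean level of -4.49, as faint as genes of class 1, whose median was -0.37 in this comparison. Mcm2, Mcm3, Rrm2, Ccna2 and Cdc25b had a second passing probe too, whose results are not given here. Cdc20 had no second probe.

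Hearts of the same group differed in many members at once. As deviations from group and sex means over the 24 arrays, the median Pearson r over the 561 pairs of members was 0.72 (Spearman 0.68), against 0.01 for all pairs of tested genes, whose quartiles were -0.23 and 0.26. Pairs with r over 0.5 made up 69.0% of member pairs and 8.09% of all pairs. The median r was 0.64 without Jiaji replicate 4 and Neiguan replicate 2. The members also varied more than other genes, with a median residual SD of 0.50 against 0.25 on the log2 scale. These are descriptions of 24 arrays that each carry all the genes, so an array's quality is shared by every pair.

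Cdk1 stood closest to the rest, with a median r of 0.90, followed by the passenger complex subunit Birc5 (0.89), Ttk (0.88) and Plk1 (0.88). Cdk1 and the checkpoint kinase Ttk had r = 0.97, and Cdk1 and the helicase subunit Mcm3 r = 0.90. Of the 34 members, 28 had a median r over 0.5. The 5 that stood apart were Cdc25b (0.05), Ccnd1 (0.05), Cdc20 (0.11), the ribonucleotide reductase subunit Rrm1 (0.12) and cyclin E2, Ccne2 (0.19). Cdc20, the member with the most calls, followed the other mitotic genes little from heart to heart: its r was 0.12 with Cdk1, -0.17 with Ccnb1 and 0.28 with Kif11. Among all members it ran from -0.55 with Rrm1 to 0.42 with E2f1.

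**Figure D3:**
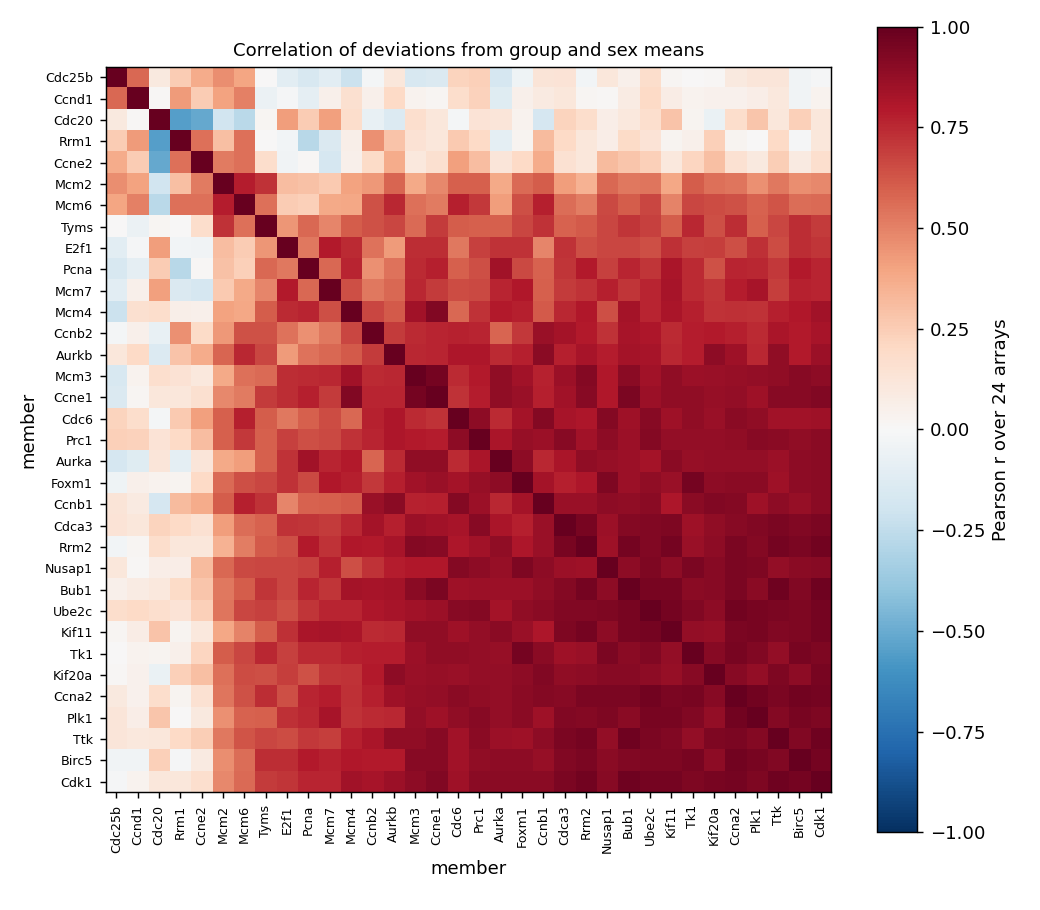
Pearson r over 24 arrays (colour, from -1 to 1) between deviations from group and sex means for each pair of the 34 tested members, ordered by median r. The pairs from Mcm3 to Cdk1 form a dark block, and Cdc25b, Ccnd1, Cdc20, Rrm1 and Ccne2 at the upper left are pale.

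The median deviation of the 34 members from their own 24-array means gives 1 value per heart. It was 0.43, 0.53, -0.34 and 0.54 in sham replicates 1 to 4, and 0.94, 0.11, 0.16 and -0.22 in IRI hearts. Jiaji hearts had -0.12, -0.23, -0.67 and 0.73, and Neiguan hearts -0.62, 0.63, 0.25 and -0.14. Yanglingquan hearts had -0.16, -0.17, -0.89 and -0.10, and Quchi hearts 0.01, 0.01, -0.29 and -0.32. All 4 Yanglingquan hearts were below 0, and the other 5 groups had hearts on both sides. The group means were 0.29 ± 0.42 (SD, n = 4) in sham, 0.24 ± 0.49 in IRI, -0.07 ± 0.58 in Jiaji, 0.03 ± 0.53 in Neiguan, -0.33 ± 0.37 in Yanglingquan and -0.15 ± 0.18 in Quchi hearts. The SD within the sham, IRI, Jiaji and Neiguan groups was larger than the gap between any 2 of their means.

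**Figure D4:**
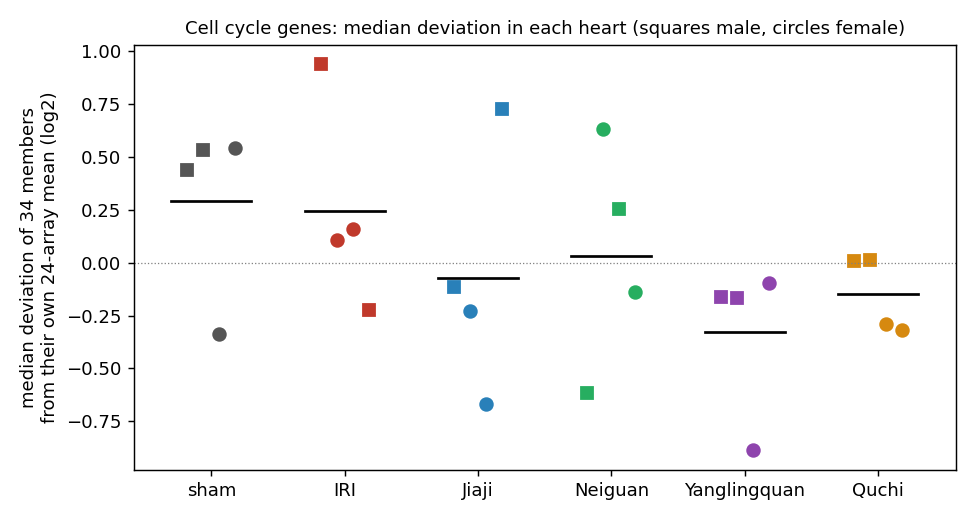
Median deviation of the 34 tested members from their own 24-array means (y axis, log2) in each heart by group (x axis), with males as squares, females as circles and the group mean as a line. IRI replicate 1 (0.94) and Jiaji replicate 4 (0.73) are the highest hearts and Yanglingquan replicate 3 (-0.89) is the lowest.

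Females had lower values than males for 32 of 34 members, with a median of -0.26, where 50.4% of all genes were below 0. None passed the test, 5 had an unadjusted p under 0.05, and the share of all genes called was 0.209% (0.0465% higher, 0.163% lower). Those 5 were cyclin E1 Ccne1 (-0.70 ± 0.24), Mcm4 (-0.30 ± 0.11), Tyms (-0.26 ± 0.11), E2f1 (-0.24 ± 0.11) and Cdc20 (-0.20 ± 0.09), with limma adjusted p 0.229 to 0.365. The median difference between females and males was -0.35 in sham, -0.25 in IRI, -0.75 in Jiaji, -0.18 in Yanglingquan and -0.31 in Quchi hearts. In the Neiguan group it was 0.34, with 2 of 34 members lower in females. Each of these rests on 2 females and 2 males, and the difference between groups was not tested.

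Genes of the same pathway outside the set were read from lists. Of 29 other mitosis genes tested, 28 were below IRI in Yanglingquan hearts (median -0.66) and 3 fell: Nek2, a centrosome kinase (-1.56 ± 0.33, limma adjusted p = 0.00387), Pbk, a mitotic kinase (-1.81 ± 0.54, adjusted p = 0.0343), and Espl1, the protease separase (-0.92 ± 0.24, adjusted p = 0.0156). None passed upward, and none passed against IRI in Jiaji, Neiguan or Quchi hearts, where 1, 2 and 3 had an unadjusted p under 0.05. None of the 3 calls held under normexp or quantile normalisation. Nek2 and Pbk entered 11 of the 12 alternatives with all hearts kept, because they failed the stricter filter on signal above background. Some of their arrays were thus faint, and the part of faint signals in their differences was not tested. With each of the 8 hearts left out in turn Nek2 kept its call in all 8 cases, Espl1 in 5 and Pbk in 2. Over the 24 arrays, as deviations from group and sex means, the median of these 29 genes followed that of the members with r = 0.99.

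Of 23 other replication genes, 2 fell in Yanglingquan against IRI: Cdt1, which loads the helicase at origins (-1.45 ± 0.24, limma adjusted p = 0.000641), and the clamp loader subunit Rfc4 (-0.45 ± 0.11, adjusted p = 0.0103). Rfc4 kept its call there in 7 of 12 alternatives with all hearts kept. Cdt1 failed the stricter filter on signal above background, and the part of faint signals in its differences was not tested. Of all genes, 8.03% were called lower there. Against sham the share called lower was 6.55% in Jiaji, 7.39% in Neiguan, 7.21% in Yanglingquan and 9.26% in Quchi hearts. Against sham 5 fell there, namely Cdt1, Rfc4, Gins2, Orc6 and Slbp. Among them were Orc6, a subunit of the origin recognition complex (-0.64 ± 0.17, adjusted p = 0.0161), and Slbp, which binds histone mRNA (-0.58 ± 0.15, adjusted p = 0.0188). In Jiaji against sham 2 fell, Orc6 (-0.58 ± 0.17, adjusted p = 0.0152) and Dut (-0.45 ± 0.15, adjusted p = 0.0337). In Neiguan against sham 4 fell, namely Rpa2, Rfc4, Orc6 and Dut, by 0.37 to 0.55 (adjusted p 0.0181 to 0.033). In Quchi against sham 5 fell, namely Slbp, Dut, Orc6, Orc2 and Prim1, with Dut, the enzyme that removes dUTP, at -0.87 ± 0.15 (adjusted p = 0.00058). Each of the 8 hearts of a comparison with sham was left out in turn. Orc6 kept its call in 5 cases in Jiaji, 3 in Neiguan, 6 in Yanglingquan and 8 in Quchi hearts. Dut kept its call in 3 in Jiaji, 2 in Neiguan and 8 in Quchi hearts. In Neiguan hearts Rpa2 kept its call in 5 and Rfc4 in 4. Slbp kept its call in 5 in Yanglingquan and 8 in Quchi hearts, and Orc2 in 3 in Quchi hearts. Cdt1 did not follow the members from heart to heart (r = -0.11), like Cdc20.

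Cell cycle brakes were not uniform. Cdkn1a, the inhibitor p21, rose in IRI against sham by 0.60 ± 0.13 (limma adjusted p = 0.0103), and it was higher than sham in all 4 acupoint groups too, by 0.55 to 0.74 (adjusted p 0.000548 to 0.00559). Against IRI, Cdkn2b, the inhibitor p15, fell in Yanglingquan hearts (-0.93 ± 0.17, adjusted p = 0.00103). Cdkn2c, the inhibitor p18, and Rbl1, the pocket protein p107, fell in Quchi hearts against IRI (-0.79 ± 0.17, adjusted p = 0.011, and -1.55 ± 0.36, adjusted p = 0.0182). Against sham, Cdkn2c fell in all 4 acupoint groups, with -0.47 in Jiaji, -0.59 in Neiguan, -0.64 in Yanglingquan and -1.15 in Quchi hearts (SE 0.17, adjusted p 0.000156 to 0.046). Rbl1 fell against sham in 3 of them, with -1.09 in Neiguan, -1.34 in Yanglingquan and -2.32 in Quchi hearts (SE 0.36, adjusted p 0.00025 to 0.0357). With each of the 8 hearts of the comparison left out in turn, Cdkn1a in IRI against sham and Cdkn2b in Yanglingquan against IRI kept their calls in all 8 cases, Cdkn2c in Quchi against IRI in 6 and Rbl1 in 5. Against sham, Cdkn1b (-0.59 ± 0.13) and Rb1 (-0.86 ± 0.19) fell in Quchi hearts and kept their calls in all 8 cases. Cdkn2a rose in Jiaji (0.56 ± 0.16, kept in 7) and Neiguan hearts (0.64 ± 0.16, kept in 8). Cdkn2b fell in Yanglingquan hearts (-0.63 ± 0.17, kept in 6). Cdkn2b and Rbl1 failed the stricter filter on signal above background, and the part of faint signals in their differences was not tested.

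Among other cyclins, kinases and E2F factors, Ccnf, cyclin F, rose in IRI against sham (0.40 ± 0.11, limma adjusted p = 0.029) and rose further against IRI in Jiaji (0.71 ± 0.11, adjusted p = 0.00014) and Neiguan hearts (0.54 ± 0.11, adjusted p = 0.0033). The repressor E2f7 rose against IRI in Jiaji and Neiguan hearts (0.77 ± 0.15 and 0.79 ± 0.15, adjusted p = 0.00242 and 0.00282), and E2f3 in Jiaji hearts (0.85 ± 0.17, adjusted p = 0.00277). In Yanglingquan hearts Mybl2, the B-Myb factor of the late cell cycle, and the E2F partner Tfdp1 fell (-1.28 ± 0.37 and -0.40 ± 0.12, adjusted p = 0.028 and 0.0334). Mybl2 failed the stricter filter on signal above background. Cdk2 fell in Quchi hearts (-0.62 ± 0.14, adjusted p = 0.0178). For the 12 tested genes of APC/C and its regulators, Anapc10 fell in Neiguan (-0.47 ± 0.12, adjusted p = 0.0268) and the inhibitor Fbxo5 in Yanglingquan hearts (-1.09 ± 0.35, adjusted p = 0.0492), both against IRI. With each of the 8 hearts left out in turn, Ccnf, E2f7 and E2f3 against IRI kept their calls in all 8 cases, Ccnf in IRI against sham in 4, Mybl2 in 4, Tfdp1 in 3, Cdk2 in 4, Anapc10 in 4 and Fbxo5 in 2.

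Markers of cell types were read beside the members. In Yanglingquan hearts 8 of 10 cardiomyocyte markers were higher than in IRI, with a median of 0.59, and the summed signal of the list was 1494 to 2199 against 1102 to 1225 in IRI hearts. Under quantile normalisation of the same arrays none of the 10 was called and their median was -0.05, while the members' median stayed at -0.47. No lymphocyte marker of 9 tested was called against IRI in any acupoint group, with medians of 0.04 in Jiaji, -0.23 in Neiguan, -0.39 in Yanglingquan and -0.42 in Quchi hearts. Their summed signal was 3.98 to 10.8 in IRI and 3.50 to 7.55 in Yanglingquan hearts. Endothelial, fibroblast and macrophage markers had medians of -0.03, -0.17 and -0.17 in Yanglingquan against IRI, with 0 of 7, 1 of 7 (the collagen gene Col1a1, -0.97 ± 0.28) and 0 of 8 called. Other markers called there were the red cell membrane gene Epb42 (-1.84 ± 0.34), the neutrophil elastase gene Elane (-1.60 ± 0.50) and Rag2, a recombinase gene of developing lymphocytes (1.37 ± 0.34). When each of the 8 hearts was left out in turn, Epb42 and Rag2 kept their calls in all 8 cases, Col1a1 in 5 and Elane in 1. Epb42 was well above background on 12 arrays, Rag2 on 18 and Elane on 24.

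In Jiaji against IRI 5 of 11 red cell precursor markers fell, the globin genes Hbb-bs (-1.47 ± 0.34), Hbb-b1 (-0.88 ± 0.23), Hba-a1 (-0.77 ± 0.21) and Hbb (-0.56 ± 0.17) and the haem synthesis gene Alas2 (-1.09 ± 0.27). When each of the 8 hearts of that comparison was left out in turn, Hbb-bs kept its call in 8 cases, Alas2 in 7, Hbb-b1 in 6 and Hba-a1 in 5. The list's median was -0.56 there and -0.06, -0.01 and 0.05 in Neiguan, Yanglingquan and Quchi hearts. Csf1r, the macrophage growth factor receptor, rose against IRI in Jiaji (0.99 ± 0.10), Neiguan (0.78 ± 0.10) and Quchi hearts (0.68 ± 0.10), while the macrophage list's medians were -0.02, 0.23 and -0.10. Rag2 rose in those 3 groups too, by 1.28 to 1.94, but with the normexp background correction Rag2 was called in none of the 4 acupoint groups (limma adjusted p 0.279 to 0.632), and its direction in Neiguan hearts turned (-0.10). Jiaji hearts also had higher Csf3r, a neutrophil receptor gene (0.63 ± 0.19), and the cardiomyocyte genes Myl3 and Tnni3 were higher in Jiaji and Neiguan hearts, by 0.39 to 0.47. Most of these calls were lost when single hearts were left out. Of the 8 such fits, Csf3r kept its call in 2. Myl3 kept it in 1 in Jiaji and 2 in Neiguan, and Tnni3 in 2 and 2. Rag2 kept its call in 8 in Jiaji, 2 in Neiguan and 3 in Quchi, and Csf1r in all 8 in each group. In Quchi hearts 2 of 7 endothelial markers fell, Tie1 (-0.77 ± 0.19, kept in 5 of 8 such fits) and Aplnr (-0.78 ± 0.21, kept in 3). Marker calls against sham are not all listed. Among them, the neutrophil gene Csf3r was higher than sham in all 4 acupoint groups, by 0.79 to 1.19. Cxcr2, another neutrophil gene, was higher in IRI than in sham hearts, by 1.05, a call kept in 5 of 8 such fits. The part of these shifts in the members' lower values was not tested.

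From heart to heart, the median deviation of the 9 lymphocyte markers moved with that of the members (r = 0.67, Spearman 0.61, n = 24), and r was 0.59 without the 2 hearts farthest from the middle. It was 0.78 over the 8 arrays of the first scan day and 0.63 over the 15 of the next. The T cell receptor subunits Cd3d (0.73) and Cd3e (0.71) and the cytotoxic granule gene Nkg7 (0.69) were closest on that list, while Cd3g, Cd4 and Cd79b had r of 0.18 to 0.20. Of all single markers the macrophage gene Cd68 was closest to the members' median (r = 0.82), and Cd14, another macrophage gene, had 0.56, while Csf1r had -0.12 and Cd163 -0.23.

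The macrophage list as a whole gave r = 0.47 (Spearman 0.50), with 0.66 on the first scan day, 0.34 on the next and 0.62 without the 2 hearts farthest from the middle. The red cell precursor list also gave 0.47 (Spearman 0.38), but it was -0.08 on the first scan day, 0.64 on the next and 0.33 without the 2 farthest hearts, so its relation was not seen on both days. For the other lists r was lower: fibroblast markers -0.31, neutrophil markers -0.38 and cardiomyocyte markers -0.17. The part of these cell type markers in the members' variation was not tested.

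**Figure D5:**
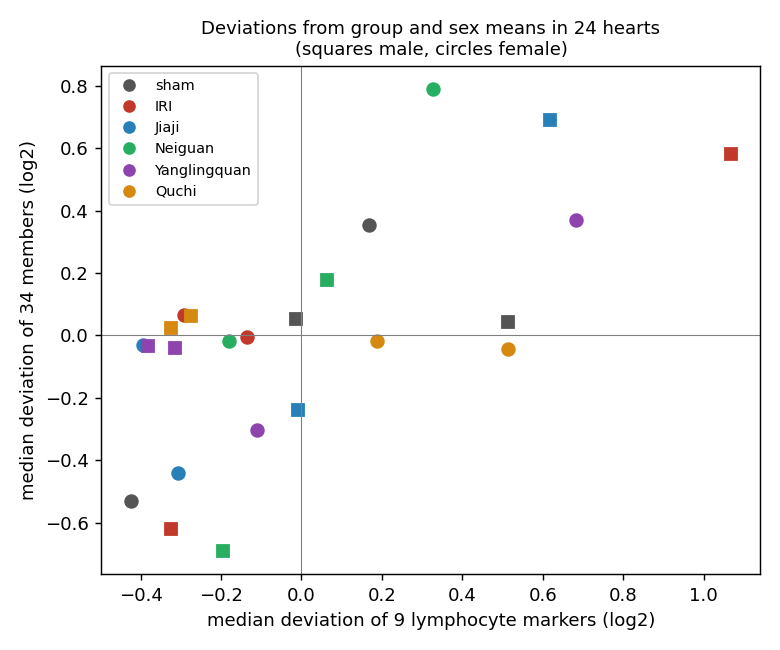
Median deviation of the 34 tested members (y axis, log2) against that of 9 lymphocyte markers (x axis, log2) in 24 hearts, both as deviations from group and sex means, coloured by group with males as squares and females as circles. Hearts with higher lymphocyte markers tended to have higher cell cycle genes (r = 0.67).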

How the data were processed

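Array values of 24 rat hearts were analysed. The scanner files hold spot intensity, background-subtracted and spatially detrended by Feature Extraction 11.0.1.1 per the file headers, while the submitters' processing notes name 10.7.3.1. Spot flags are other values (0 or 1), per the file headers. The authors' deposited table of log2 values correlated at 0.997 or above with the matching arrays and has column medians of 7.20; its normalisation is not stated, and it served as an alternative.

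Control spots (1377) and flagged outlier spots (8733 over all arrays) were left out, and spots of a probe averaged. Values are log2 processed intensity minus the array's 75th percentile. Of 30367 probes, 59.3% were named through RefSeq transcripts. A probe passed if well above background on all 4 arrays of a group, and the passing probe of highest mean level stood for its gene. limma 3.58.1 (R 4.3.3) was fitted with group and sex over all arrays (17 residual degrees of freedom), and p-values were adjusted over 12894 genes by Benjamini-Hochberg at 0.05. The script was tested on simulated data. The number of arrays limits the precision. Python 3.11.15 was used for descriptions.

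Members and lists were chosen with earlier results of these data known. Values in every heart are given for members called in any comparison and for Mki67, Top2a, Cdk1, Ccnb1, Ccnd1 and Pcna (those with a tested probe). Called genes of other lists were picked by smallest p, and not all of them are named, above all for comparisons with sham. Alternatives covered background correction (normexp with an offset of 50 on the median spot signal), scaling, the filter, the probe rule, sex, the arrays fitted, blocks and each array left out.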

Additional observations from a re-analysis of the deposited data

Results flagged for a closer look

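Within groups of 4 hearts, the gap of the lowest or highest heart to its nearest neighbour passed Dixon's 95% critical value in 6 of 54 groups of values, where chance gives about 1 in 20. Ccnb1 was low in Quchi replicate 4 (-4.00). Cdk1 was low in sham replicate 3 (-1.75) and in Yanglingquan replicate 3 (-2.47). Pcna was high in Yanglingquan replicate 2 (2.37). The median deviation of the 34 tested members was low in the same sham replicate 3 (-0.34) and Yanglingquan replicate 3 (-0.89). Cdc20 differed among the 4 acupoint groups by limma's F test (adjusted p = 0.000967), with the lowest levels in Yanglingquan hearts.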

How the results depend on the processing

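Cdc20 in Yanglingquan hearts against IRI, against sham and against the other acupoint groups kept its direction and its call under every alternative run and with any heart left out. The members' median was below 0 in each of the 4 comparisons with IRI under every scaling. The median of all genes was below 0 too in some of them. With normexp it was -0.10 in Jiaji and -0.13 in Neiguan hearts, where the members had -0.28 and -0.24. With median scaling it was -0.23 in Jiaji hearts, where the members had -0.49. Counts of called members moved as follows. With normexp, Yanglingquan had 1 against IRI and 1 against sham, where 650 and 966 of all 12894 genes were called. With quantile normalisation, Neiguan and Yanglingquan had 1 each against IRI (880 and 852 of all genes) and 1 each against sham (3463 and 1335). With median scaling, Jiaji had 3, Neiguan 1 and Yanglingquan 1 against IRI, where 2369, 811 and 1686 of all genes were called. Against sham that scaling gave Jiaji 9, Neiguan 2, Yanglingquan 1 and Quchi 2, with 6864, 4327, 1536 and 2812 of all genes called. In Jiaji against sham a smaller share of members than of all genes was thus called. The F test gave 2 there (7024 of all genes). Yanglingquan against the other acupoint groups had 3, of which 2 were higher (5284 of all genes). The authors' processed values gave 1 each for Neiguan and Yanglingquan against IRI (869 and 858 of all genes) and for Neiguan and Quchi against sham (3473 and 2912). Averaging the passing probes gave 4 for Yanglingquan against IRI, 4 against sham, 1 for Quchi against sham, 4 by the F test and 3 for Yanglingquan against the other acupoint groups; testing every passing probe gave 2 for the last. Fitting only the groups compared gave 1 for Yanglingquan against IRI (1191 of all genes), 0 for Jiaji (2636) and 3 for Quchi against sham (1790). It gave 2 for Yanglingquan against the other acupoint groups (2782).

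Scan as a random block had an estimated correlation of -0.10, from Quchi alone. It gave 1 for IRI against sham (1636 of all 12894 genes), 1 for Neiguan (1804) and 8 for Yanglingquan against IRI (3043). Against sham it gave 2, 3, 10 and 5 for Jiaji, Neiguan, Yanglingquan and Quchi, with 4942, 4622, 3407 and 4293 of all genes called. The F test gave 3 (7564) and Yanglingquan against the other acupoint groups 2 (4845). Where a group and its scan coincide, this fit cannot remove scan from a group difference. A negative correlation then only narrows the standard error, which raises the counts. Replicate numbers are positions on the slide and did not pair the hearts: same-numbered hearts of different groups had a median r of 0.07 over 60 pairs, with 23 over 0.1, and 8 of 24 arrays were closest to their own number. With the number as a replicate block, Neiguan against IRI had 1 call (734 of all genes), Yanglingquan against IRI 1 (1523) and Quchi against sham 1 (2708). The count changed in no other comparison. Leaving out 1 heart at a time gave 0 to 2 called members for Jiaji against IRI, 0 to 2 for Neiguan, 1 to 2 for Yanglingquan, 0 to 3 for Jiaji against sham, 0 to 4 for Neiguan, 1 to 4 for Yanglingquan and 0 to 1 for Quchi against sham, 1 to 2 by the F test and 1 to 3 for Yanglingquan against the other acupoint groups. The highest counts against sham came with 2762 of all genes called in Jiaji, 2736 in Neiguan, 1140 in Yanglingquan and 2556 in Quchi. Against IRI they came with 1102 in Jiaji and 672 in Neiguan. The cause of the other changes was not tested.

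With median scaling the all-gene median went to -0.23 in Jiaji and 0.08 in Yanglingquan against IRI, from -0.01 and -0.04, to -0.36 and -0.24 in Jiaji and Neiguan against sham, and to 0.20 in Yanglingquan against the other acupoint groups. Of genes outside the members, normexp reversed Nek2 (0.00698) and Cdkn2b (0.0251) in Yanglingquan against sham, Nek2 (0.111), Cdca8 (0.0133), Cd4 (0.016) and Dntt (0.0454) in Yanglingquan against the other acupoint groups, and Rag2 in Neiguan against IRI (-0.10). The authors' processed values reversed Cdkn2b (0.0418), Tnni3 (-0.0294) and Tnnt2 (-0.0259) in Yanglingquan against sham and Mb (-0.00622) against the other acupoint groups, and quantile normalisation reversed Tnni3 (-0.0307), Tnnt2 (-0.0266) and Mb (-0.00668) in the same comparisons. The cause was not tested. Faint signal limits the members Ccne2, Aurkb and Cdkn3. Among other genes it also limits Epb42, Dntt and Rag2, which were well above background on 12, 17 and 18 arrays. The same holds for Nek2, Pbk, Cdca8, Cdt1, Cdkn2b, Mybl2 and Rbl1, which failed the stricter filter.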
